A study of Arabidopsis thaliana with 16 samples.

Results

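Protein protected sites (PPSs) that lay wholly inside 5' untranslated regions (5' UTRs) of nuclear mRNAs of Arabidopsis thaliana numbered 1179 of the 71928 distinct sites in 4 lists. A site was taken when every base of it fell in 5' UTR exon bases of the scored mRNAs and no base fell in coding sequence (CDS), on either strand, and sites with the same start and end were counted once. The rule used positions alone, and no score, RNase or condition entered it. The lists came from PIP-seq, in which crosslinked RNA is digested with an RNase specific for single-stranded RNA (ssRNase) or for double-stranded RNA (dsRNase), with proteins in place (footprinting) or after their removal (structure-only), and stretches enriched in the footprinting library are PPSs. Tissue was salt-treated or control-treated rosette leaves of 4-week-old UBQ10:NTF/ACT2p:BirA plants of the Columbia-0 ecotype, with 2 replicates and 2 lists of each treatment. Salt-treated plants received NaCl in their water and control-treated plants did not, and all plants carried the same transgenes and were crosslinked with formaldehyde. The nuclear tag is expressed ubiquitously, so the nuclei came from all leaf cell types together, and an endoplasmic reticulum marker was detectable in the preparation, so some of the RNA may have come from that membrane.

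The 5' UTR is the stretch that the small ribosomal subunit scans on its way to the start codon. Upstream ATG codons in it can open short reading frames that lower translation of the main protein, and folded RNA or bound protein can slow scanning. In the nucleus, before any scanning, a 5' UTR is capped by the cap-binding complex, and where it is spliced the exon junction complex (EJC) is left a short distance upstream of the junction.

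The middle 30 bases of 9 sites are shown because they carry the patterns described below, namely 3 of the high-scoring sites shared by all lists, 4 high-scoring sites of a single condition, a site with a large change of structure and a site in a gene with a known upstream reading frame. Sequences were read 5' to 3' on the transcript's strand from the RefSeq TAIR10.1 genome, whose coordinates match the TAIR10 build of the lists. Capitals mark an ATG upstream of the annotated start codon.
AT2G31150, chr2:13272914-13272943, plus strand: gttgaacacatttgtgccctgaagATGttt
CHIP, AT3G07370, chr3:2360345-2360374, minus strand: ggacgcgccgtcgcacaagttacagaggag
PIP5K5, AT2G41210, chr2:17173423-17173452, plus strand: ggtttggaacATGgtctagagaaacattca
AT1G22190, chr1:7835955-7835984, plus strand: tactttgattcatttctgttagtaatctgt
ECIP1, AT4G24800, chr4:12782252-12782281, plus strand: tgacacgtagaagaatttgATGaaaccttg
PP2-A11, AT1G63090, chr1:23392671-23392700, minus strand: atttctttgtttttctgaagatccaaggca
RP1, AT1G43170, chr1:16266755-16266784, plus strand: tcctcatcgttggagcttagaagccgtcgg
AT1G54460, chr1:20343415-20343444, minus strand: gagaATGtatttgacgagttccaggagaaa
VTC2, AT4G26850, chr4:13501339-13501368, minus strand: tttgccgcacggaggacgtggagctctgcc

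The lists hold positions, strands, RNases and scores without read counts, so the depth behind a site is unknown here and the number of sites in a list can move with the depth of its libraries. Sites of 1 list share their libraries and are not replicates of a condition. The lists also hold many calls with identical position and score, whose independence was not tested, and p-values over lists measure only the spread between these lists. Strand was not used in the rule because the lists disagree on it. All 242 sites with the same start and end in both salt-treated lists carried opposite strands, whereas 254 of the 255 such sites in both control-treated lists carried the same strand. The share of 5' UTR sites on the strand of their gene was 84.5% and 53.0% in salt-treated replicates 1 and 2, and 39.8% and 75.6% in control-treated replicates 1 and 2. Sites in the CDS had shares of 84.7% and 57.4% in the salt-treated lists and 36.3% and 71.9% in the control-treated lists, so the strand pattern belonged to whole lists.

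RBP binding in 5' UTRs did not separate the conditions in number. There were 523 and 398 sites in salt-treated replicates 1 and 2, against 560 and 505 in control-treated replicates 1 and 2, so salt-treated replicate 1 lay between the control-treated lists. The mean was 460.5 ± 88.4 sites in salt-treated and 532.5 ± 38.9 sites in control-treated tissue (SD, n = 2 each; difference −72, exact two-sided permutation p = 0.667). With 2 lists against 2, the smallest p such a test allows is 0.333. As a share of all nuclear sites of its list, 5' UTR sites made up 1.62% and 1.52% in salt-treated lists and 1.58% and 1.80% in control-treated lists (difference −0.12 percentage points, exact p = 0.667). The direction of that difference was not the same in the replicates. Salt-treated minus control-treated, it was 0.0354 percentage points with replicate 1 alone and −0.278 percentage points with replicate 2 alone.

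**Figure D1:**
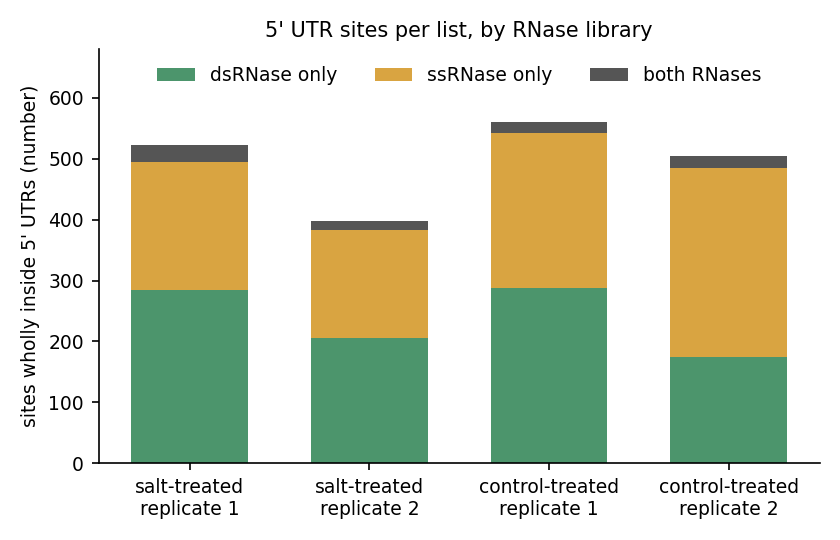
Number of sites wholly inside 5' UTRs in each list (bars from 0, in sites), split by the RNase that called them, with the salt-treated lists left of the control-treated lists. The 523 and 398 sites of the salt-treated lists overlap the range of the control-treated lists (560 and 505), and control-treated replicate 2 has the most ssRNase-only sites (310).

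The RNase behind the sites differed most in control-treated replicate 2. Sites called by the dsRNase alone made up 54.3% and 51.8% of 5' UTR sites in the salt-treated lists and 51.2% and 34.7% in the control-treated lists. Sites called by the ssRNase alone made up 40.2% and 44.5% in salt-treated lists and 45.7% and 61.4% in control-treated lists. Only 1 control-treated list stood apart, and the difference of 10.1 percentage points in the dsRNase share (53.0 ± 1.80% in salt-treated and 43.0 ± 11.7% in control-treated lists, SD, n = 2 each) gave an exact permutation p = 0.333, the smallest possible. CDS sites of that list also had a low dsRNase share (35.9%), against 57.2% in control-treated replicate 1.

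Compared with the coding sequence, 5' UTRs were sparsely covered. Sites covered 2.67% and 2.07% of 5' UTR bases in the salt-treated lists and 2.81% and 2.43% in the control-treated lists. Over the 4 lists this was 2.50 ± 0.326% of 5' UTR bases against 7.09 ± 1.05% of CDS bases and 1.96 ± 0.314% of 3' UTR bases (SD, n = 4). Each list held the same order, and an exact sign-flip permutation test over the 4 lists gave p = 0.125 for both differences, the smallest that 4 lists allow. The count of covered bases takes every listed site, so a site across the start codon adds its bases to each region it touches.

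Further properties set 5' UTR sites apart from CDS sites by a little, in the same direction in every list. The median length was 49.6 ± 0.750 nt for 5' UTR and 52.0 ± 1.41 nt for CDS sites, and the median GC content was 40.7 ± 0.478% against 45.0 ± 0.118% (SD, n = 4, exact sign-flip permutation p = 0.125 each). The share of a list's sites present in all 4 lists was 13.7 ± 2.15% for 5' UTR and 10.3 ± 1.58% for CDS sites (SD, n = 4, exact permutation p = 0.125). For 3' UTR sites that share was 14.5 ± 2.41% (SD, n = 4), so it was not particular to 5' UTRs. The dsRNase share did not differ in a set direction, at 48.0 ± 8.99% for 5' UTR and 48.1 ± 9.20% for CDS sites (difference −0.08 percentage points, exact permutation p = 1). Against the other untranslated end it did: the dsRNase share of 5' UTR sites was 10.7 percentage points below the 58.7 ± 7.95% of 3' UTR sites, and their GC content was 4.25 percentage points above the 36.4 ± 0.261% of 3' UTR sites (SD, n = 4, exact permutation p = 0.125 each).

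How often a 5' UTR site returned in another list depended on what counts as a return. Of the 523 sites of salt-treated replicate 1, 272 (52.0%) overlapped a site of salt-treated replicate 2 by at least 1 nt on either strand, and 242 of these had identical ends and identical scores. Of the 560 sites of control-treated replicate 1, 331 (59.1%) overlapped a site of control-treated replicate 2, with 255 identical in position and 252 in score as well. Among all nuclear sites the overlaps were 56.2% for the salt-treated and 58.7% for the control-treated replicates. Without the identical positions, 30 of 281 sites (10.7%) of salt-treated replicate 1 and 76 of 305 sites (24.9%) of control-treated replicate 1 overlapped a site of the other replicate, against 17.5% and 25.5% of all nuclear sites. Identical calls also crossed the conditions, with 213 positions in common between salt-treated and control-treated replicates 1 and 70 between replicates 2. These were 40.7% and 17.6% of the 5' UTR sites of salt-treated replicates 1 and 2, against 37.2% and 15.8% of all their nuclear sites. Salt-treated replicate 2 and control-treated replicate 1 had 157 positions in common, 156 with the same score but 113 with the same RNase label and none on the same strand. Among all nuclear sites these 2 lists had 10559 positions in common, 6715 with the same RNase label and 29 on the same strand.

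Counted over positions, 67 of the 1179 sites (5.68%) were present in all 4 lists, against 5.16% of all distinct nuclear sites, and 606 (51.4%) were in 1 list, against 49.7% of all. By identical position, these shares lay near those of nuclear sites in general. Sites of a salt-treated list that overlapped no control-treated site numbered 214 (18.2%, against 16.7% of all nuclear sites), and sites of a control-treated list that overlapped no salt-treated site numbered 277 (23.5%, against 19.3%). Requiring both replicates left 70 sites of salt-treated tissue alone (5.94%, against 5.48% of all) and 87 of control-treated tissue alone (7.38%, against 6.59%). These shares lay near those of all nuclear sites, with the widest gap for control-treated sites without a salt-treated overlap, and the gaps were not tested.

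The RNase that called a site went with how the site was shared. Of the 67 sites present in all 4 lists, 64 (95.5%) were called by the dsRNase alone, 3 by both RNases and 0 by the ssRNase alone. Of the 70 sites in both salt-treated lists and without a control-treated overlap, 11 were dsRNase-only and 59 (84.3%) ssRNase-only. Of the 87 sites in both control-treated lists and without a salt-treated overlap, 11 were dsRNase-only and 74 (85.1%) ssRNase-only. The condition-specific and the constant 5' UTR sites were thus called mostly by opposite RNases. The pattern belonged to nuclear sites in general, since among all distinct nuclear sites the dsRNase alone called 93.9% of those in all 4 lists, and the ssRNase alone called 80.6% of the salt-treated and 71.4% of the control-treated class.

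**Figure D2:**
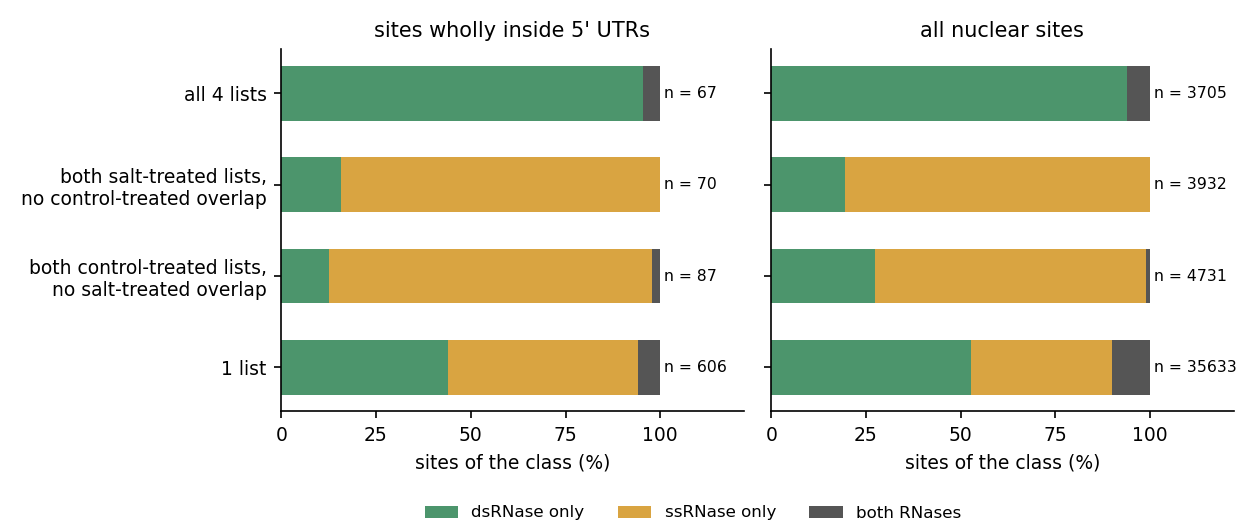
Share of sites (percent, axis from 0) called by the dsRNase alone, the ssRNase alone or both, for sites grouped by the lists that hold them, with 5' UTR sites beside all distinct nuclear sites. Of 5' UTR sites in all 4 lists 95.5% are dsRNase-only, whereas 84.3% of those of both salt-treated lists alone and 85.1% of those of both control-treated lists alone are ssRNase-only.

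Among the sites of all 4 lists, the 10 with the highest scores lay in genes of varied annotation. The score is the enrichment of the footprinting over the structure-only library as the authors' caller gave it, and each named site had the same score in every list that held it. The highest, 23.21, belonged to a 143-nt site in the middle of the 946-nt 5' UTR of AT2G31150, annotated as an ATPase, and 67 of its bases overlapped an upstream reading frame. CHIP, a co-chaperone and E3 ubiquitin ligase that marks misfolded clients of heat shock protein chaperones for degradation, had a 102-nt site with a score of 21.46 that ended 7 nt before the start codon. A 46-nt site of AT3G01310, a phosphoglycerate mutase-like protein, scored 19.37 in all 4 lists and lay 57 nt from its start codon.

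Lower in the same ranking stood CAM5, a calmodulin that senses calcium, PIP5K5, a phosphatidylinositol 4-phosphate 5-kinase, and AT3G55760, an uncharacterized protein, each with a score of 14.22. The site of PIP5K5 had 1 base ahead of it in its transcript and held the upstream ATG printed above. ATG8F, a ubiquitin-like protein of autophagosome membranes, had a 49-nt site with a score of 13.5, as had AT5G02160. The remaining sites lay in AT3G28270, an uncharacterized transmembrane protein (13.48), and in GTE8, a bromodomain protein (13.44). All 10 were called by the dsRNase in the salt-treated lists, and in the control-treated lists CHIP (both lists) and AT3G01310 (replicate 2) were also called by the ssRNase. Each of the 10 was listed on the minus strand in salt-treated replicate 2 and on the plus strand in the other lists. The sites of CHIP, AT3G01310 and ATG8F, genes of the minus strand, were thus on their gene's strand in salt-treated replicate 2 alone.

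The strongest sites of both salt-treated lists without a control-treated overlap were all ssRNase calls. A 97-nt site in AT1G22190, an AP2/ERF-type DNA-binding protein, had the highest score of any named site (27.18), and its middle is rich in T. ECIP1, an MA3 domain protein known to bind the ethylene signalling protein EIN2, had a 58-nt site with a score of 22.56, in the second exon of its 5' UTR and with 45 bases in an upstream reading frame. The next were ADK1, annotated as a dual specificity kinase (14.76), IMPA-4, an importin alpha that carries proteins into the nucleus (13.48), and AT3G26730, a RING/U-box protein (13.48). Each of the 5 was listed on the plus strand in replicate 1 and on the minus strand in replicate 2.

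The strongest sites of both control-treated lists without a salt-treated overlap were led by PP2-A11, a phloem protein 2 family member, with an 81-nt site scored 20.94. It was followed by AT1G57680, named Cand1 in the annotation (20.43), and by AT1G55590, a leucine-rich repeat protein whose 60-nt site ended 11 nt before the start codon (15.21). RP1, a protein of the large ribosomal subunit, had a 42-nt site scored 15.2 that ended 16 nt before the start codon, and it was the only dsRNase call among these 5. AT2G35680, a phosphatase, completed them (14.76). PP2-A11 and AT1G55590 were listed on the strand opposite to their gene in both control-treated lists.

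Sites crowded towards the start codon. Of 1176 sites assigned to a transcript, 414 (35.2%) had their last base within 50 nt of the start codon, against 23.2% when a stretch of the same length was placed at every possible position in the same 5' UTR exons. The share was 35.5% and 34.6% in the salt-treated lists and 33.1% and 36.6% in the control-treated lists, so the conditions overlapped. At the other end, 211 sites (17.9%) had their first base within 50 nt of the transcript start, against 27.5% of all placements. In 5' UTRs of several exons, 391 of 601 sites (65.1%) lay in the first exon, against 70.7% of placements. The median site had 155 nt of 5' UTR before it and 84 nt after it.

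**Figure D3:**
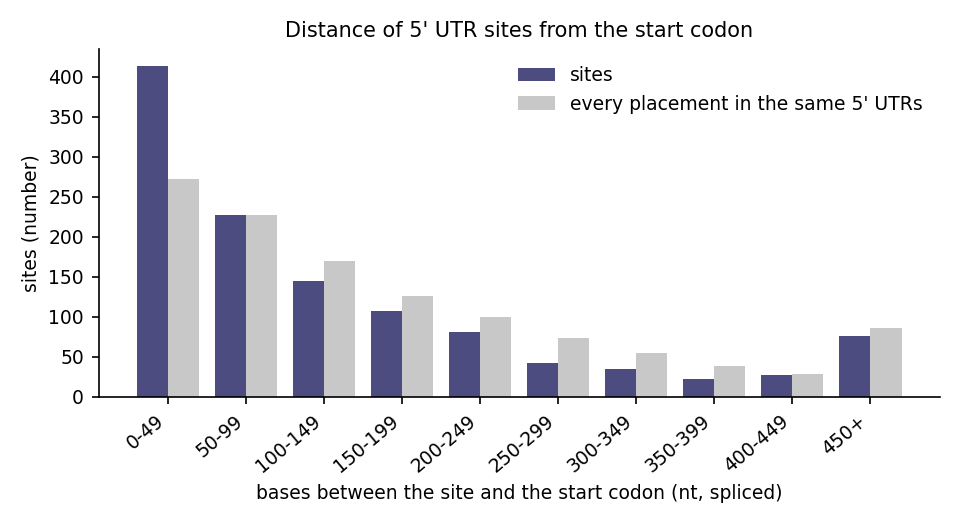
Number of 5' UTR sites (bars from 0) by spliced distance between the site's end and the start codon in nt, beside the number given by placing the same stretches everywhere in the same exons. In the bin next to the start codon 414 sites stand against 272 from all placements, the bin from 50 nt is equal (227), and from 250 to 299 nt 42 sites stand against 73.7.

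Upstream reading frames were met about as often as by placement. An upstream ATG lay inside 382 sites (32.5%, against 29.9% of placements), and 462 sites (39.3%, against 40.8%) overlapped a reading frame that starts at an upstream ATG and ends at a stop codon before the annotated start codon. Of the sites printed above, those of AT2G31150, PIP5K5, ECIP1 and AT1G54460 hold such an ATG.

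Ends of exons inside the 5' UTR carried an excess of sites. The base 24 nt before an exon junction was taken as the place where an EJC would sit. Of the 449 sites in exons followed by a junction within the 5' UTR, 261 (58.1%) covered that base, against 26.0% of all placements. In each list the share was 61.1% and 67.6% in salt-treated and 57.1% and 61.7% in control-treated tissue. The mirror base 24 nt after a junction was covered by 74 of 210 sites (35.2%), against 36.0% of placements, with 31.9% and 36.7% in the salt-treated and 41.0% and 34.6% in the control-treated lists. The difference between the sides was 25.8 percentage points over the 4 lists (61.9 ± 4.30% before and 36.0 ± 3.83% after a junction, SD, n = 4, exact sign-flip permutation p = 0.125, the smallest possible).

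Part of this excess consisted of sites flush with the end of the exon. The lists give genomic positions, so a footprint across a spliced junction could be cut at the exon edge, which was not tested. Of the 449 sites, 164 (36.5%, against 1.92% of placements) ended at the last base of the exon, and 63 of these 164 (38.4%) faced a listed site at the first base of the next exon. Among the 285 sites that were not flush, 115 (40.4%) covered the base 24 nt before the junction, against 21.9% of placements, with 44.9% and 50.5% in the salt-treated and 36.9% and 40.6% in the control-treated lists. The starts of exons after a junction also had flush sites, 54 of 210 (25.7%, against 4.47% of placements). Among the 156 sites there that were not flush, 37 (23.7%) covered the mirror base, against 30.9% of placements. In coding exons, 49.0% of 27907 sites covered the base before a junction and 24.6% of 27322 sites covered the base after one, against 29.8% of placements on either side. The gap between the sides in the CDS was 26.3 percentage points over the 4 lists (51.2 ± 3.19% before and 24.9 ± 0.511% after a junction, SD, n = 4, exact permutation p = 0.125). In 5' UTRs it was 25.8 percentage points, and the difference of the gaps was not tested. Placements covered the base before a junction less often in 5' UTRs (26.0%) than in the CDS (29.8%). After a junction they covered it more often (36.0% against 29.8%), so like gaps do not mean a like excess over placement. The 5' UTR share before a junction was higher than the CDS share in every list (61.9 ± 4.30% against 51.2 ± 3.19%, difference 10.6 percentage points, SD, n = 4, exact permutation p = 0.125), and so was the share after a junction (36.0 ± 3.83% against 24.9 ± 0.511%, difference 11.1 percentage points, exact permutation p = 0.125). Which proteins protected these bases was not tested.

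**Figure D4:**
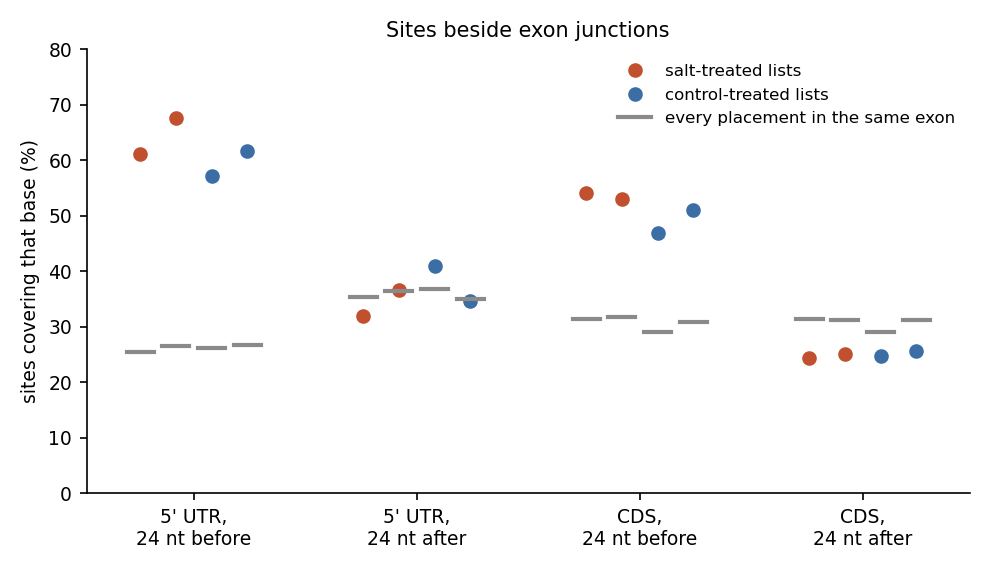
Share of sites (percent, axis from 0) that cover the base 24 nt before or after an exon junction, for 5' UTR and CDS sites in the 4 lists and for all placements of the same stretches. Before a junction the 5' UTR lists lie between 57.1% and 67.6%, against 26.0% of placements over all lists, and after a junction between 31.9% and 41.0%, against 36.0%.

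Bases under 5' UTR sites were less structured than their surroundings in both conditions. The structure score compares, per base and on a generalized log2 scale, the coverage of the dsRNA-seq with that of the ssRNA-seq library of the structure-only RNA and is scaled to the mean of the transcript, so a higher value means more double-stranded RNA. Replicates were merged in it, so there is 1 value per condition with no replicate check and no test. The mean score under the site minus that over the rest of the same 5' UTR had a median of −0.13 in salt-treated tissue (lower under the site in 662 of 1161, 57.0%) and −0.27 in control-treated tissue (725 of 1155, 62.8%). The structure-only libraries enter both the score and the calling of sites, so these measures are not independent. Aligned on their middle, sites had a mean score of −0.35 in salt-treated and −0.47 in control-treated tissue over the central 21 nt, against −0.07 in salt-treated and −0.09 in control-treated tissue from 60 to 100 nt before it, and −0.20 in salt-treated and −0.14 in control-treated tissue from 60 to 100 nt after it.

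**Figure D5:**
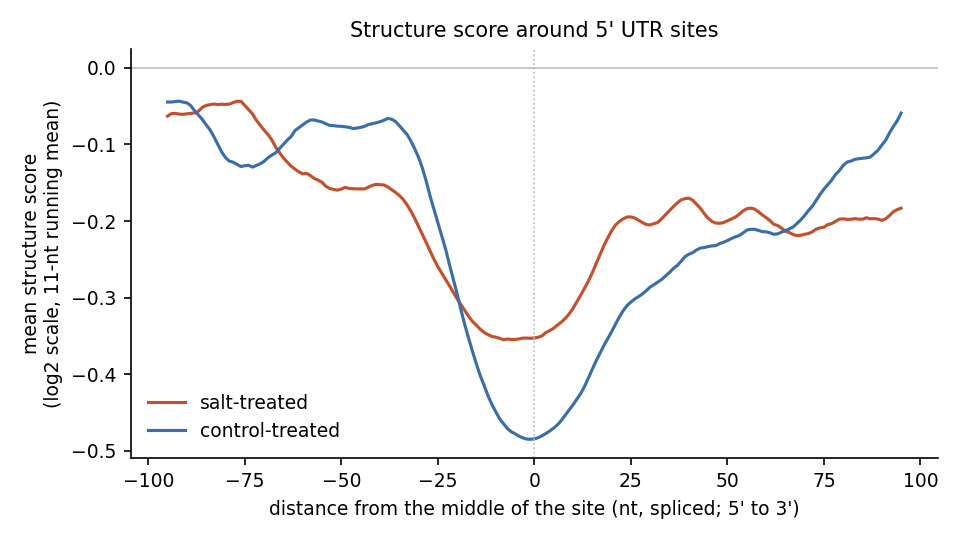
Mean structure score (log2 scale, transcript mean at 0, drawn as a running mean) against distance from the middle of the site in nt, for salt-treated and control-treated tissue, with both replicates merged and no error available. The central 21 nt average −0.35 in salt-treated and −0.47 in control-treated tissue, below the flanks on both sides.

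The dip was shallower in salt-treated tissue. Over 1153 sites scored in both conditions, the score under the site was higher in salt-treated than in control-treated tissue by a median of 0.12 (quartiles −0.38 and 0.60), while the rest of the same 5' UTRs changed by a median of −0.02. The score was higher in salt-treated tissue by more than 0.5 at 333 sites (28.9%) and lower by more than 0.5 at 231 sites (20.0%). Among all 50-nt tiles of 5' UTRs, those shares were 35.2% higher and 34.9% lower, with a median change of 0.01. So large changes were less frequent under sites than over 5' UTRs at large, and leaned towards higher scores in salt-treated tissue. The 2840 tiles that touch a site had shares of 29.2% higher and 26.6% lower, and the 18736 tiles free of sites had 36.2% in each direction. The part of read coverage, which sites need in order to be called, was not tested.

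The median change was above 0 whichever condition held the site. It was 0.18 for sites of salt-treated lists only, 0.12 for sites of control-treated lists only and 0.07 for sites of both. By RNase it was 0.10 for dsRNase-only sites, 0.15 for ssRNase-only sites and −0.01 for sites called by both.

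The largest changes at single sites were far beyond those medians. AT5G25360, an uncharacterized protein, had a score of 0.45 in salt-treated and −3.17 in control-treated tissue under a 43-nt site of salt-treated replicate 1. The rest of its 5' UTR had 0.44 in salt-treated and 0.41 in control-treated tissue. AT1G54460, a TPX2 family protein of the kind that binds microtubules, had 1.27 in salt-treated and −1.93 in control-treated tissue under a site 17 nt before its start codon. The rest of its 5' UTR was also higher in salt-treated tissue, with 1.19 against −0.37 in control-treated tissue. The site of AT4G36050, a member of the endonuclease/exonuclease/phosphatase family, had 1.54 in salt-treated and −1.52 in control-treated tissue, and all of its 49 bases are coding in the RefSeq annotation. The rest of that 5' UTR had 0.21 in salt-treated and −0.39 in control-treated tissue.

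Scores were lower in salt-treated tissue under sites of AUG5, a subunit of the microtubule-binding augmin complex (−1.75 in salt-treated and 2.61 in control-treated tissue). The rest of the AUG5 5' UTR had −0.53 in salt-treated and −0.05 in control-treated tissue. In AT5G61970, related to the signal recognition particle that brings ribosomes to the endoplasmic reticulum, the score was −0.28 in salt-treated and 3.31 in control-treated tissue. The rest of its 5' UTR had −1.13 in salt-treated and 2.91 in control-treated tissue, so the change was not confined to the site. AT3G62840, a small nuclear ribonucleoprotein family protein, had −2.21 in salt-treated and 1.13 in control-treated tissue under a 22-nt site. The rest of the AT3G62840 5' UTR had −1.10 in salt-treated and −0.34 in control-treated tissue. Of these 6 sites, AT1G54460 alone was in more than 1 list, with a score of 8.14 in salt-treated replicate 1 and control-treated replicate 2. Of the 10 named sites of all 4 lists, 9 were scored in both conditions, with 4 higher and 5 lower in salt-treated tissue. The largest difference downwards was in AT3G55760 (0.74 in salt-treated and 2.97 in control-treated tissue) and the largest upwards in AT3G28270 (−0.71 in salt-treated and −1.73 in control-treated tissue).

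The sequence under sites was richer in G and poorer in C and T than 5' UTRs in general. Base shares under sites were 23.5% G, 17.8% C, 27.1% A and 31.6% T, against 17.3% G, 21.4% C, 28.1% A and 33.3% T in all 5' UTR bases of the table. Pyrimidines, abundant in plant 5' UTRs, made up 49.4% of bases under sites and 54.0% of the whole 5' UTRs of the same transcripts. Searched on the transcript's strand alone, CTCTCT lay in 40 sites (3.40%) and TCTTCT, which can overlap it, in 75 (6.38%), against 12.6% and 16.0% of all stretches of the same lengths in 5' UTRs. GAGAGA, which reads TCTCTC on the other strand, lay in 112 sites (9.52%), against 5.77% of stretches. Runs of A were also scarce, with AAAAAA in 37 sites (3.15%, against 7.38%), and TTTTTT lay in 85 (7.23%, against 9.60%).

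Host genes had long 5' UTRs. At least 1 site lay in 712 of 10003 genes (7.12%), of which 472 had 1 site and 29 had 5 or more. The median 5' UTR was 288 nt in host genes and 145 nt in all genes of the table. The share of genes with a site was 1.06% for 5' UTRs under 100 nt, 4.64% from 100 nt, 10.1% from 200 nt, 17.3% from 300 nt and 28.5% at 500 nt or more. The density was also greater in the longer classes, at 0.16, 0.42, 0.57, 0.77 and 1.09 sites per kb in those classes. A site had to lie wholly inside the 5' UTR, so a short 5' UTR offers few possible positions. The density was counted per base and not per possible position, and the part of the rule in these values was not tested.

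Groups of genes differed along with the length of their 5' UTRs. Ribosomal protein genes had a site in 3 of 205 (1.46%, median 5' UTR 89 nt), and photosystem and light-harvesting genes in 1 of 42 (2.38%, 84 nt), both below the 7.12% of all genes. Kinase genes had one in 70 of 597 (11.7%, 206 nt) and transcription factor genes in 35 of 322 (10.9%, 191 nt). Splicing factors, with 5 of 65 (7.69%, 126 nt), heat shock proteins and chaperones, with 8 of 132 (6.06%, 142 nt), and RNA-binding proteins, with 9 of 168 (5.36%, 130.5 nt), lay nearer to the share of all genes. No test was made of these shares, and the part of 5' UTR length in them was not tested.

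Genes known for a conserved upstream reading frame were a list of 23, of which 16 had a 5' UTR in the table and 3 had a site. That was 18.8% of the 16, with a median 5' UTR of 476 nt, against 7.12% and 145 nt for all genes, and was not tested. BZIP53, a bZIP transcription factor of the group whose translation is repressed by sucrose through its 5' UTR, had a 51-nt site in control-treated replicate 2 alone, with a score of 8.14 and 90 nt before the start codon. AT5G09460, the bHLH143 transcription factor, had 2 sites in the third exon of its 5' UTR, 1 in salt-treated and control-treated replicates 1 with a score of 7 and 1 in control-treated replicate 1 with a score of 12.13. VTC2 encodes GDP-L-galactose phosphorylase of vitamin C synthesis, and its 5' UTR is known to repress translation when ascorbate is high. A 32-nt site of VTC2 was in both salt-treated lists and control-treated replicate 1 (5.57), on the strand of the gene in salt-treated replicate 2 alone. The 73-nt site of VTC2, printed above, was in control-treated replicate 2 alone with a score of 13.29, and touched an ATG-started upstream frame by 8 bases.

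The gene with the most sites was AT5G25560, with 16 sites that covered 614 of the 1505 nt of its 5' UTR. Salt-treated replicates 1 and 2 held 0 and 9 of them, and control-treated replicates 1 and 2 held 8 and 2. The gene was thus empty in 1 replicate of a condition and densest in the other. AT1G26580 had 12 sites over 654 of 1014 nt, with 3 and 6 in the salt-treated and 6 and 2 in the control-treated lists. PI-4KBETA1, a phosphatidylinositol 4-kinase, had 9 sites over 422 of 544 nt, with 3 and 0 in the salt-treated and 4 and 2 in the control-treated lists, and 7 of the 9 were called by the ssRNase alone.

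The annotation set how many sites were counted. With the 5' UTRs of RefSeq, the lists held 952 and 705 sites in salt-treated and 933 and 822 in control-treated tissue, well above the counts given here. Of the 1179, 62 touched a base that RefSeq counts as coding in some transcript (46 wholly), 19 lay in 5' UTRs of more than 1 gene, and 12 touched a 3' UTR of another transcript. Overlapping sites of different lists formed 921 separate stretches. Site length ran between 2 and 215 nt with quartiles of 38 and 65 nt and a median of 50 nt, and 139 sites were shorter than 30 nt.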

How the data were processed

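Nuclei of salt-treated and control-treated rosette leaves were profiled in 16 libraries, 4 per replicate. The authors trimmed reads, mapped them to TAIR10, reduced paired footprinting and structure-only libraries to equal size and called PPSs with their own version of CSAR (false discovery rate 5%), and the submitters' processing notes name cutadapt 1.2.1 and TopHat2 2.0.10. The deposited score of a PPS is the caller's enrichment, and the deposited structure score is a generalized log ratio per base, computed by the authors with replicates merged. Tables of lncRNAs were not used here.

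The 5' UTR, CDS and 3' UTR bases were taken from the transcripts of the control-treated structure table (15078 nuclear transcripts of 10570 genes). In 618 transcripts the columns that bound the CDS were empty, and 99.4% of their bases are RefSeq coding sequence, so they gave no 5' UTR. Gene names are those of RefSeq for TAIR10.1, and an ATG stood at the annotated start in 14458 of 14460 coding transcripts. A site was assigned to the transcript with the longest 5' UTR that held it, and every placement means each position of an equal stretch within the same 5' UTR exons.

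Python 3.11.15, numpy 2.4.6, scipy 1.17.1 and matplotlib 3.10.9 were used. Exact two-sided permutation tests ran over lists. The genes named were the 3 with the most sites, the 10 sites of all 4 lists and 5 of each condition with the highest scores, the 3 largest rises and falls of structure score among sites of at least 20 nt scored throughout, and each known upstream frame gene with a site. The sites, gene lists and tests were chosen with earlier results of these data known. Alternatives covered strand, overlap, site length, score, annotation and single replicates. On simulated lists, 600 of 600 planted sites were found.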

Additional observations from a re-analysis of the deposited data

Results flagged for a closer look

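The dsRNase share of 5' UTR sites moved against that of CDS sites in opposite directions in the conditions. The 5' UTR share minus the CDS share was 1.74 and 5.21 percentage points in salt-treated replicates 1 and 2, against −5.99 and −1.29 percentage points in control-treated replicates 1 and 2. The difference between the conditions was 7.11 percentage points, and an exact permutation test over the 4 lists gave p = 0.333, the smallest it allows. A difference from CDS or 3' UTR sites was flagged only when its sign was opposite in the conditions and the same within each. Any result flagged in this way must give that p, so the p-value carries no further information.

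The share of sites on the strand of their gene did not itself split the conditions. It was 84.5% and 53.0% in salt-treated and 39.8% and 75.6% in control-treated lists. Its difference from the share of CDS sites did. The 5' UTR share minus the CDS share was −0.163 and −4.43 percentage points in salt-treated lists, against 3.54 and 3.76 percentage points in control-treated lists. The difference was −5.95 percentage points (exact permutation p = 0.333, again fixed by the rule for flagging). The strands of the lists disagree at identical sites, and the part of that in this difference was not tested.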

How the results depend on the processing

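Of 99 alternative values for 26 results, 81 were counted as unchanged. A difference between conditions or regions had only to keep its sign, whatever its size. Structure scores and counts of changed sites had to stay within a fixed fold of the main value. Shares for overlap and position had to stay in the 95% interval of the main value. With 5' UTRs of the RefSeq annotation the share of each list in 5' UTRs was 0.0376 percentage points higher in salt-treated tissue, against −0.12 percentage points with the table's 5' UTRs. With 1 replicate left out, this difference ranged between −0.278 and 0.0354, the dsRNase share of 5' UTR minus CDS sites between −2.12 and 1.96, the sense share minus that of CDS sites between −0.334 and 1.69 and minus that of 3' UTR sites between −2.83 and 1.81 percentage points, and the share of sites that cover the base 24 nt before a junction between 58.7% and 63.5%.

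The overlap of salt-treated replicate 1 with replicate 2 was 52.0% on either strand, 12.6% on the same strand and 46.3% for identical ends. For control-treated tissue it was 59.1%, 49.6% and 45.5%, and 54.1% for a reciprocal overlap of 50%. Sites of salt-treated lists without a control-treated overlap were 31.5% of those lists' 5' UTR sites. The share was 47.9% on the same strand, 39.8% reciprocally and 54.3% for identical ends. Sites of control-treated lists without a salt-treated overlap were 34.2%, 52.6%, 44.6% and 61.7% of those lists' 5' UTR sites, in the same order. The 31.5% and 34.2% count the same sites as the 18.2% and 23.5% given earlier, which were shares of all 1179 sites. The earlier shares stood against 16.7% and 19.3% of all nuclear sites. With the sites of 1 condition's lists as the whole, no comparison with all nuclear sites was made. With the transcript of the shortest 5' UTR, 39.2% of sites ended within 50 nt of the start codon.

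With the replicate number as a block, the difference in number was −72 (exact permutation p = 0.5) and that in share −0.12 percentage points (p = 1). Pairing cannot change these differences, so only the p-values could move. The labels tie no number to a shared batch, and differences between replicates in sites per gene correlated at −0.388 between the conditions over 10570 genes, which are not independent. Crossed numbers, an alternative chosen after seeing the data, gave an exact permutation p = 0.5 for the share and a larger p than the block for the number. Without read counts, sites missed for lack of depth cannot be told apart from unprotected ones.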
